A study of Mus musculus with 24 samples.

Results

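The growth hormone and insulin-like growth factor (IGF) axis was followed through 7 genes, picked by symbol from the 33272 genes of the table: Ghr, Igf1, Igfals, Socs2, Cish, Mup3 and Mup20. Each symbol stood on 1 gene ID, and all 7 passed the filter on low counts in both tissues. The 24 libraries, 3 for each tissue and arm, held RNA of C57BL/6 mouse livers and kidneys in 4 arms. Control mice had no treatment, and no vehicle injection is named for them. The cisplatin arm was given 20 mg/kg of the DNA-crosslinking platinum drug into the peritoneum. The CBLB502 arm was given 0.2 mg/kg of CBLB502, a flagellin derivative that activates the receptor TLR5, by the same route. In the combination arm this CBLB502 dose preceded the cisplatin dose by 30 min, and tissue of all treated arms was taken at 72 h. The labels give no age, sex or clock time, and nothing in them says that libraries of an arm came from separate mice, so p-values measure the spread between libraries, which may be technical. Nor do they say whether livers and kidneys came from the same mice.

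Growth hormone from the pituitary binds its receptor, Ghr, on hepatocytes, and the kinase Jak2 bound to the receptor phosphorylates the transcription factor Stat5b. Stat5b turns on Igf1, the circulating growth factor, and Igfals, the acid-labile subunit that holds IGF and its binding proteins in a long-lived plasma complex. It also turns on Socs2 and Cish, which feed back to restrain the receptor, and in male mice the pulsed secretion of the hormone sustains major urinary proteins such as Mup3 and Mup20. In inflamed liver the axis is known to be restrained by Socs3 and related inhibitors, while Igfbp1 is known to rise.

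The libraries differed in ways that bear on every comparison below. Mitochondrially encoded genes took 69.3% to 72.2% of counts in control liver and 2.57% to 7.1% in treated liver. In kidney they took 60.7% to 69.0% in control and 6.32% to 14.2% after treatment. Liver libraries totalled 40.6 to 77.5 M counts (M being mega) and kidney libraries 52.9 to 77.1 M. Outside mitochondrial genes and their nuclear copies, control livers kept 2.82 to 4.65 M counts, while treated livers kept 48.6 to 74.5 M. This difference cannot be told apart from treatment in any comparison with control, so comparisons among treated arms are given beside them. One cisplatin library of each tissue also stood apart from the other two, library 3 in liver and library 6 in kidney. The chi-square per degree of freedom between liver cisplatin libraries was 2130 and 1610 for pairs with library 3 against 209 without it, and in kidney it was 778 and 865 with library 6 against 172. Where leaving out that library changed a call of a member, or of another gene in a comparison given for it, the value without it is given too. Y-linked genes summed to 47.8 CPM or more in every library and Xist reached at most 1.93 CPM.

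Levels below are counts per M on TMM-scaled library sizes (CPM), with the spread as SD over n = 3 libraries. Log2 fold changes are given ± SE with a Benjamini-Hochberg adjusted p from edgeR's quasi-likelihood test over all genes of a tissue, and a gene was called at an adjusted p under 0.05. The SE was worked back as the absolute log2 fold change over the square root of the test's F, so it is approximate. In bulk tissue, fewer cells of a type and less RNA per cell cannot be told apart.

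The Stat5 core motif was searched for in the RefSeq promoters of the members (build GRCm38.p6, 250 bases before to 50 after each start), as TTCNNNGAA, which reads the same on both strands. Promoters were found for 5 of the 7 genes, and 2 of these, Cish and Igfals, held the motif, which 9.55% of all 27025 symbols with a promoter held. The matches are shown because both genes are textbook Stat5 targets and went apart in these libraries, with the motif in capitals and all strands plus.
Cish (chr9:107296655-107296682): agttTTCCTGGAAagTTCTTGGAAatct
Igfals, far start (chr17:24877598-24877626): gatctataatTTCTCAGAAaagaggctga
Igfals, near start (chr17:24878163-24878191): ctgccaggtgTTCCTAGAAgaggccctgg
The Cish stretch carried 2 copies of the motif, which 0.457% of all promoter windows did, and the first began at the annotated start. The Igfals matches lay 236 and 58 bases before the first and the second of its 3 starts. A match is a description of letters and not evidence of binding.

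In liver the receptor was highest after CBLB502 alone and split the cisplatin libraries. Ghr (ENSMUSG00000055737, chromosome 15, 3317760 to 3583230) stood at 72.3, 94.3 and 77.4 CPM in control and at 230.5, 234.0 and 238.5 CPM with CBLB502. In cisplatin liver it was at 26.2, 32.4 and 196.3 CPM, and in the combination at 135.4, 105.1 and 138.9 CPM. For Ghr, cisplatin libraries 1 and 2 lay below every other liver library and library 3 lay between the combination and CBLB502. The mean was 81.3 ± 11.5 CPM in control, 234.3 ± 4.02 CPM after CBLB502, 84.9 ± 96.5 CPM after cisplatin and 126.5 ± 18.6 CPM after both. With all libraries edgeR called no difference for Ghr in liver: CBLB502 against control gave 1.53 ± 0.603 (adjusted p = 0.0817), cisplatin against CBLB502 gave -1.46 ± 0.601 (adjusted p = 0.134) and the combination against cisplatin gave 0.57 ± 0.591 (adjusted p = 0.65). Limma-voom called cisplatin against CBLB502 for Ghr. Without cisplatin library 3, Ghr was lower with cisplatin than in control (-1.45 ± 0.195, adjusted p = 0.000104) and than with CBLB502 (-3.01 ± 0.211, adjusted p = 4.84e-06), and higher in the combination than with cisplatin (2.13 ± 0.201, adjusted p = 6.47e-05). DESeq2 returned no p for Ghr or Igfals in any liver comparison.

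**Figure D1:**
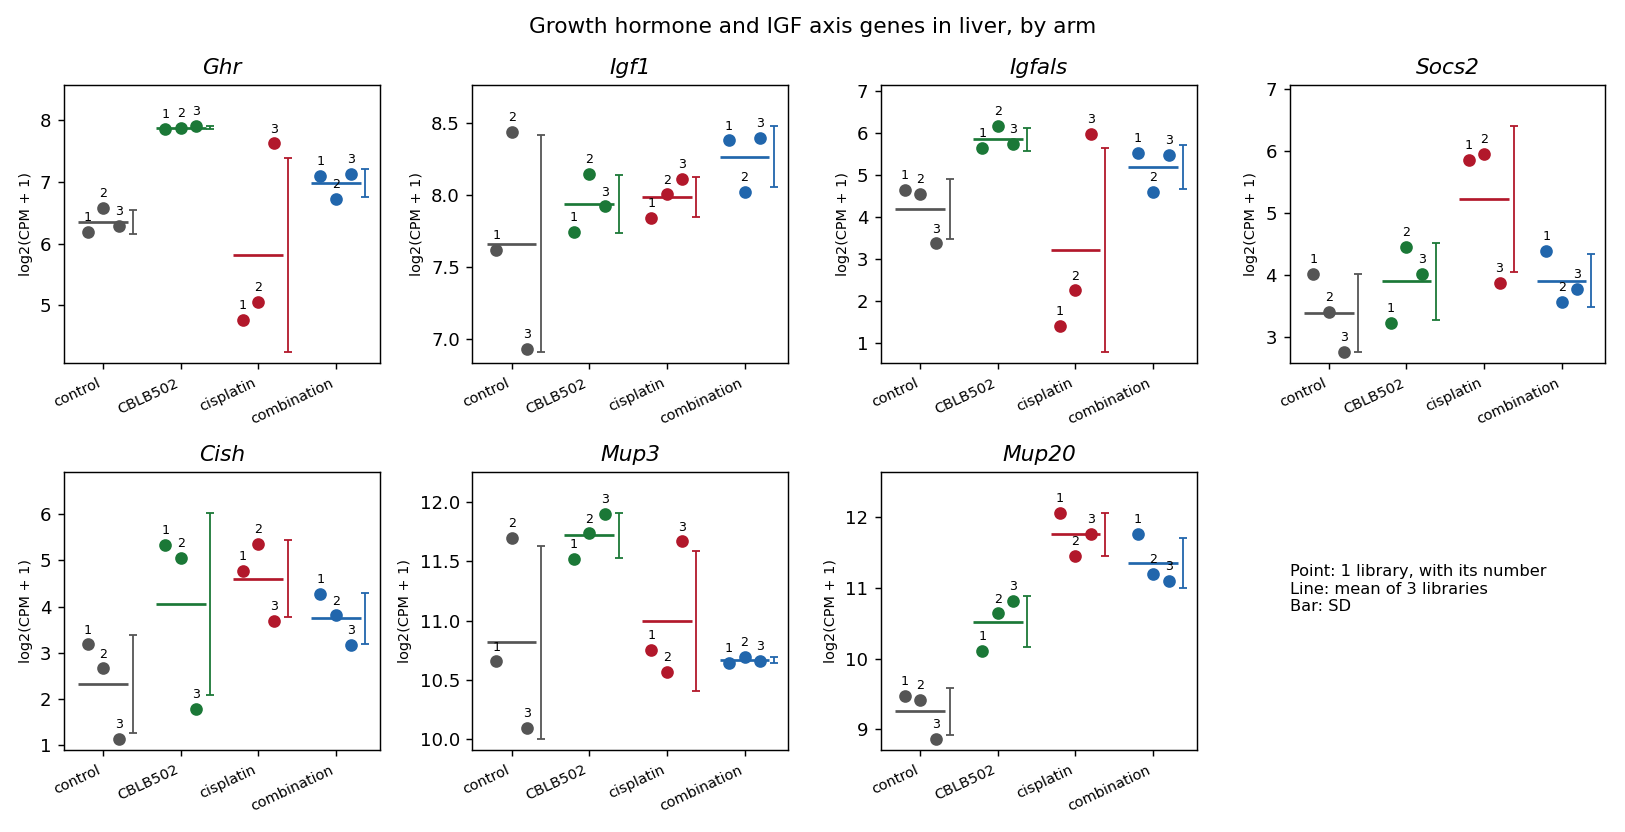
Level of each of the 7 genes in the 12 liver libraries as log2(CPM + 1) (vertical axis) by arm (horizontal axis); points are libraries with their numbers, lines are means of 3 libraries and bars are SD. Ghr and Igfals of cisplatin libraries 1 and 2 lie below all other liver libraries while library 3 lies above the combination, and Mup20 is higher in every treated library than in every control library.

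Igf1 itself hardly moved in liver. Igf1 (ENSMUSG00000020053, chromosome 10, 87858265 to 87937042, overlapping 1 other annotated gene) was at 196.0, 345.8 and 121.2 CPM in control, 213.9, 283.1 and 241.6 with CBLB502, 228.5, 256.1 and 276.0 with cisplatin and 332.3, 259.0 and 336.9 with the combination. The control libraries alone spanned more than the treated libraries did, and the groups overlapped in all pairs of arms. The 4 main differences lay between 0.04 ± 0.32 (cisplatin against CBLB502, adjusted p = 0.954) and 0.29 ± 0.32 (combination against cisplatin, adjusted p = 0.681), and those against control turned sign under other scalings. The combination against control was called without control library 2, the highest control (0.99 ± 0.257, adjusted p = 0.0137), and not with all libraries (0.49 ± 0.321, adjusted p = 0.243). Cisplatin libraries 1 and 2, in which the receptor was lowest, held 228.5 and 256.1 CPM of Igf1, within the range of the CBLB502 libraries.

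The carrier subunit followed the receptor and not the growth factor. Igfals (ENSMUSG00000046070, chromosome 17, 24865997 to 24882010) was at 24.1, 22.4 and 9.36 CPM in control, 49.2, 70.7 and 52.4 with CBLB502, 1.67, 3.77 and 62.0 with cisplatin and 45.0, 23.2 and 43.5 with the combination. Cisplatin libraries 1 and 2 were again the lowest of the tissue, and library 3 fell among the CBLB502 libraries. EdgeR called no difference in Igfals with all libraries: cisplatin against CBLB502 gave -1.35 ± 0.974 (adjusted p = 0.401). Without cisplatin library 3 the same comparison gave -4.41 ± 0.526 (adjusted p = 0.000122), cisplatin against control gave -2.75 ± 0.488 (adjusted p = 0.000749) and the combination against cisplatin gave 3.78 ± 0.509 (adjusted p = 0.000415). Over the 9 treated liver libraries the log2 levels of Igfals and Ghr had a Pearson r of 0.98, and those of Igf1 and Ghr one of 0.19. These values describe libraries that share their arms, and they carry no p.

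Of the feedback inhibitors, Socs2 rose with cisplatin. Socs2 (ENSMUSG00000020027, chromosome 10, 95385362 to 95417180) was at 15.1, 9.60 and 5.74 CPM in control liver, 8.36, 20.98 and 15.1 with CBLB502, 56.9, 61.1 and 13.6 with cisplatin and 19.9, 10.8 and 12.7 with the combination. The split ran opposite to that of Ghr: cisplatin libraries 1 and 2 were the highest of the tissue and library 3 lay within control. Cisplatin exceeded control by 2.11 ± 0.56 (adjusted p = 0.0101), and the combination lay below cisplatin by a difference that was not called (-1.60 ± 0.541, adjusted p = 0.118) unless library 3 was left out (-2.01 ± 0.406, adjusted p = 0.00452). Cisplatin against CBLB502 gave 1.57 ± 0.541 (adjusted p = 0.0805), and 1.99 ± 0.405 without library 3 (adjusted p = 0.00369).

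Cish, the other feedback inhibitor, was higher with cisplatin than in control. Cish (ENSMUSG00000032578, chromosome 9, 107296026 to 107302784, overlapping 1 other annotated gene) was at 8.08, 5.34 and 1.21 CPM in control liver and at 39.1, 32.3 and 2.45 CPM with CBLB502. It was at 26.3, 39.95 and 11.97 CPM with cisplatin and at 18.3, 13.0 and 7.97 CPM with the combination. CBLB502 library 3 lay within control, and every cisplatin library lay above every control library. Cisplatin against control was called (2.42 ± 0.885, adjusted p = 0.0448), but the call was lost on leaving out any 1 library of these arms other than cisplatin library 3 (adjusted p from 0.0512 to 0.123). CBLB502 against control gave 2.33 ± 0.883 (adjusted p = 0.0701), and 2.93 without CBLB502 library 3 (adjusted p = 0.0105).

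The 2 urinary protein genes at the output of the axis did not move alike. Mup20 (ENSMUSG00000078672, chromosome 4, 62050234 to 62054158), which encodes the male pheromone darcin, was at 709.9, 684.2 and 466.2 CPM in control liver. It was at 1106, 1592 and 1797 CPM with CBLB502, 4253, 2795 and 3449 with cisplatin and 3450.0, 2349 and 2190.0 with the combination. Every treated library lay above every control library and every cisplatin library above every CBLB502 library, library 3 included. Mup20 rose by 1.27 ± 0.294 with CBLB502 (adjusted p = 0.00772), by 2.5 ± 0.306 with cisplatin (adjusted p = 8.07e-05) and by 2.1 ± 0.302 with the combination (adjusted p = 0.000291), each against control. Cisplatin exceeded CBLB502 by 1.22 ± 0.294 (adjusted p = 0.0209), a call lost without any 1 of the CBLB502 libraries or cisplatin library 1, with adjusted p from 0.0548 to 0.103. The combination lay below the sum of both single differences from control, with an interaction of -1.67 ± 0.412 (adjusted p = 0.0141). Control enters this contrast, so the library difference of control cannot be told apart from an interplay of the drugs. The median interaction over all genes was -0.23. Of the 829 stretches of 100 bases in its annotated transcript, 61.2% occur in no other gene and 322 are shared with the pseudogene Mup-ps19, so the split of reads between these 2 is uncertain.

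Mup3 (ENSMUSG00000066154, chromosome 4, 62083476 to 62087342) was at 1610.0, 3327 and 1090.0 CPM in control liver, 2943, 3414 and 3828 with CBLB502, 1726, 1517 and 3256 with cisplatin and 1598, 1657 and 1614 with the combination. Its combination libraries were nearly equal and its control libraries spread the most. Cisplatin library 3 again lay among the CBLB502 libraries. EdgeR called no difference for Mup3 in liver with all libraries: cisplatin against control gave 0.11 ± 0.397 (adjusted p = 0.842), and cisplatin against CBLB502 gave -0.65 ± 0.398 (adjusted p = 0.32), which became -1.07 ± 0.370 without library 3 (adjusted p = 0.0486). CBLB502 against control gave 0.76 ± 0.399 (adjusted p = 0.182), and 1.36 ± 0.350 without control library 2, which held 3327 CPM (adjusted p = 0.0195). The combination against CBLB502 gave -1.06 ± 0.401 for Mup3 (adjusted p = 0.149), a difference that DESeq2 called. Of its 100-base stretches 97.8% occur in no other gene.

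Counted together, 3 of the 7 genes were called higher with cisplatin than in control liver and none lower, where 25.6% of all 17931 genes tested were called higher. With CBLB502 1 of 7 was higher (18.3% of all genes), with the combination 1 of 7 (23.8%), and cisplatin exceeded CBLB502 for 1 of 7 (7.7%). The median log2 difference of the 7 was 0.27 with cisplatin and 1.27 with CBLB502, beside 0.09 and 0.14 over all genes. None of 7 was called between the combination and cisplatin by edgeR, where 3.57% of all genes were, with 1 at an unadjusted p under 0.05, 1 by DESeq2 (Socs2) and none by limma-voom. Without cisplatin library 3, 5 of 7 were called between cisplatin and control (46.8% of all 18531 genes then tested) and 5 of 7 between cisplatin and CBLB502 (29.6%). The combination then differed from cisplatin for 3 of 7 genes (Ghr, Igfals and Socs2), where 23.1% of all genes were called. None of 7 was called between the combination and CBLB502, where 6.74% of all genes were, with 2 at an unadjusted p under 0.05 and 1 by DESeq2 (Mup3). The interaction was called lower for 1 of 7 (14.5% of all genes). Without cisplatin library 3 it was called also for Socs2 (-2.59), Cish (-3.70) and Igfals (2.13), without control library 1 for Socs2, without control library 2 for Mup3 (-1.77) and without CBLB502 library 3 for Cish (-3.91).

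**Figure D2:**
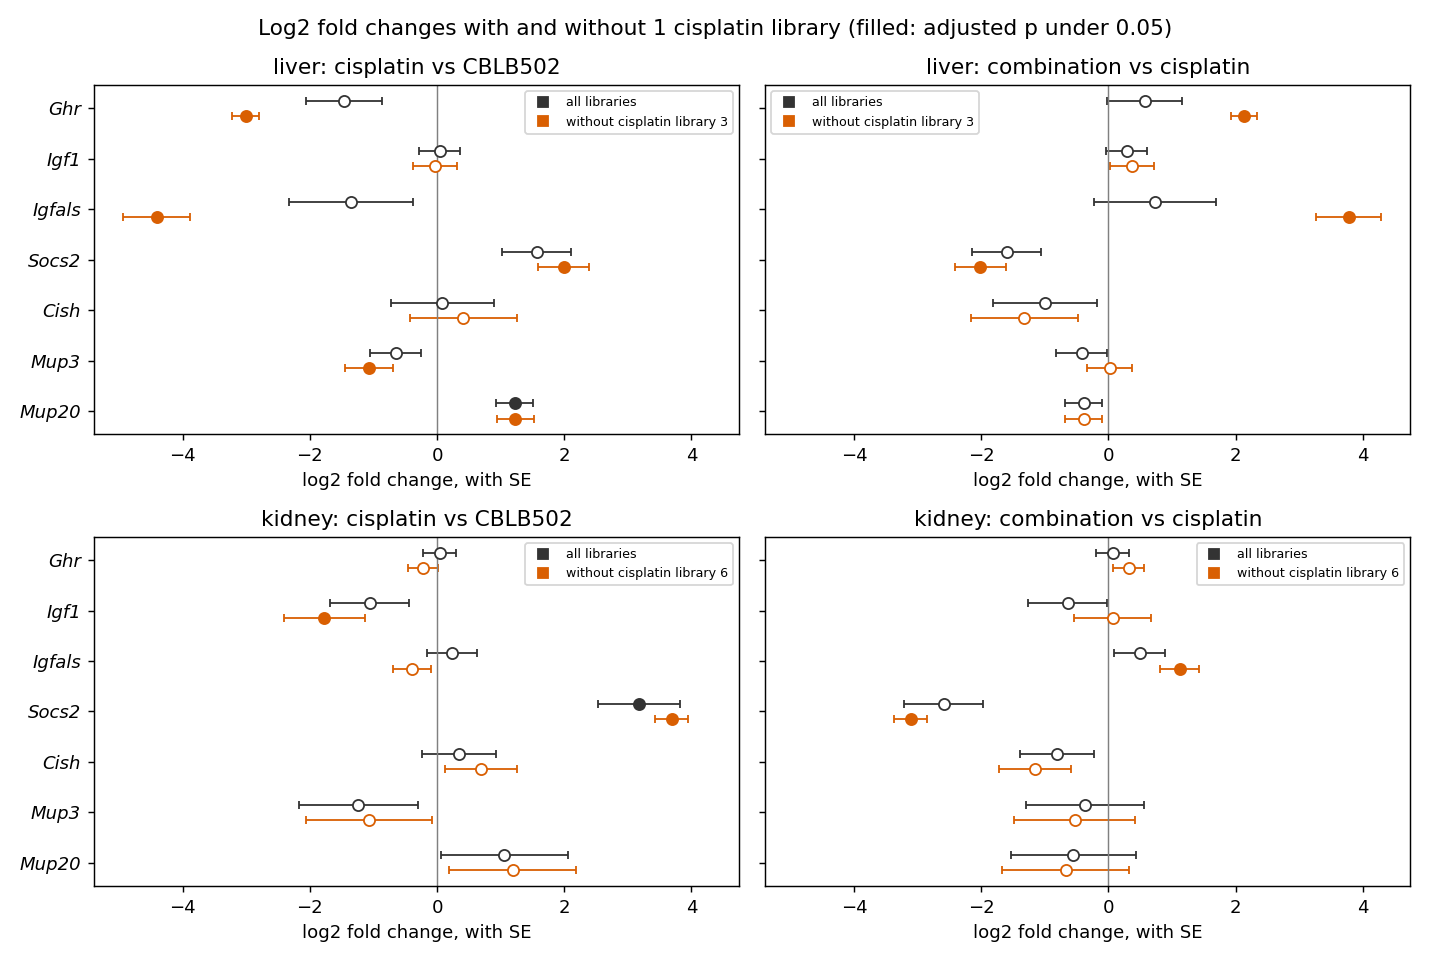
Log2 fold change ± SE (horizontal axis) of the 7 genes (vertical axis) for cisplatin against CBLB502 and the combination against cisplatin, in liver (top) and kidney (bottom), from edgeR; black marks all libraries, orange leaves out liver cisplatin library 3 or kidney cisplatin library 6, and filled points have an adjusted p under 0.05. In liver Ghr moves from -1.46 to -3.01 and Igfals from -1.35 to -4.41 against CBLB502, while Mup20 stays near 1.22.

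Marker sums differed between the cisplatin livers. Saa1 and Lcn2, acute-phase genes added after the values were seen, summed to 31890.0, 14650.0 and 224.5 CPM in cisplatin libraries 1, 2 and 3, against 11.1 to 41.3 CPM in control and 457.3 to 1185 CPM in the combination. A list of 6 neutrophil markers summed to 26.7, 37.9 and 1.84 CPM, against 3.72 to 7.95 CPM in control and 0.0359 to 0.449 CPM in the combination. A list of 6 Kupffer cell and macrophage markers summed to 18.8, 17.6 and 93.1 CPM in cisplatin libraries 1, 2 and 3, against 101.2 to 167.4 CPM in control, 133.5 to 266.0 CPM with CBLB502 and 14.1 to 21.4 CPM in the combination. All 9 hepatocyte markers were detected in every liver library, summing to 15040.0 to 29290.0 CPM in control and 66070.0 to 107400.0 CPM with cisplatin. The sums were 52410.0 to 64320.0 CPM with CBLB502 and 65370.0 to 84710.0 CPM with the combination. Markers of this list went both ways between cisplatin libraries 1, 2 and 3. Fgb was at 25180.0, 19810.0 and 3213 CPM, and Cyp2e1 at 462.0, 769.6 and 4124 CPM. A list of 3 small RNA genes (Rn7s1, Rn7s2 and Rpph1) summed to 609.1 CPM in library 3 and to 6.32 and 5.30 CPM in libraries 1 and 2. The part of these in the member differences was not tested.

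Of 12 receptor and signalling genes, 3 were called higher and 4 lower with cisplatin than in control liver, where 25.6% and 17.5% of all genes were, with a median of 0.32 beside 0.09 over all genes. Stat5b, the main carrier of the growth hormone signal, was at 29.3, 35.9 and 41.7 CPM in control and at 13.2, 15.4 and 27.1 CPM with cisplatin, a fall of -0.94 ± 0.302 (adjusted p = 0.0257). Stat5b was also lower with CBLB502 (-0.92 ± 0.302, adjusted p = 0.0399), in livers where Ghr was highest. Jak2, the receptor's kinase, was not called against control (0.23 ± 0.233 with cisplatin, adjusted p = 0.449). Grb10, an adaptor that dampens insulin and IGF receptors, was lower with cisplatin (-2.22 ± 0.695, adjusted p = 0.023), a call lost without cisplatin library 3 (-1.81, adjusted p = 0.0538). Without that library the combination against cisplatin was called for Stat5b (0.95, adjusted p = 0.0233) and for Jak2 (-0.81, adjusted p = 0.028).

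Stat3, which carries interleukin-6 and leptin signals, was at 26.9, 25.9 and 31.4 CPM in control and 182.7, 163.9 and 76.7 CPM with cisplatin (2.33 ± 0.298, adjusted p = 0.000106). Without cisplatin library 3, Stat3 was lower in the combination than with cisplatin (-0.96, adjusted p = 0.00257). The leptin receptor gene Lepr, at 0.404 CPM or less in control, reached 72.2 and 105.5 CPM in cisplatin libraries 1 and 2 but 0.812 CPM in library 3, and was lower in the combination than with cisplatin (-6.11 ± 1.30, adjusted p = 0.0295).

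Of 6 other genes of the SOCS family, 3 were called higher and none lower with cisplatin than in control liver, where 25.6% and 17.5% of all genes were, with a median of 0.74. Socs3, at 9.59, 25.4 and 11.9 CPM in control, stood at 216.9, 294.9 and 15.2 CPM with cisplatin (3.49 ± 1.02, adjusted p = 0.0162) and at 8.62, 20.4 and 11.6 CPM with the combination. The combination against cisplatin was called for Socs3 only without cisplatin library 3 (-4.22, adjusted p = 0.0028). Socs1 reached 13.6, 13.6 and 0.157 CPM with cisplatin (5.58 ± 1.76 against control, adjusted p = 0.0242) and was at or below 0.0641 CPM in the combination (-8.67 ± 1.88 against cisplatin, adjusted p = 0.0325). Both were high in the libraries with the lowest Ghr and the highest Socs2. Socs6 rose by 0.96 ± 0.285 (adjusted p = 0.0181). Against control, CBLB502 gave 1.66 ± 1.75 for Socs1 and -0.15 ± 0.928 for Socs3, and neither was called.

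Binding proteins of IGF changed where Igf1 was not called. Of 17 genes for IGF ligands, receptors, binding proteins and proteases 14 could be tested in liver. With cisplatin 5 were higher and 1 lower than in control, beside 25.6% and 17.5% of all genes. The median of the 14 was 0.96, beside 0.09 over all genes. Igfbp1, a short-term binder of IGF in plasma, was at 12.9, 29.6 and 49.7 CPM in control, 2.37, 2.91 and 3.31 with CBLB502, 3705, 2900.0 and 90.6 with cisplatin and 224.2, 468.1 and 292.3 with the combination. It thus fell with CBLB502 (-3.42 ± 0.96, adjusted p = 0.0202) and rose with cisplatin (6.18 ± 1.09, adjusted p = 0.00086), a difference of 9.61 ± 1.26 between these arms (adjusted p = 0.00125). Igfbp1 in the combination did not differ from cisplatin at the threshold (-2.77 ± 0.927, adjusted p = 0.114), but did without library 3 (-3.32, adjusted p = 0.000481).

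Igfbp2 rose with CBLB502 (2.05 ± 0.457, adjusted p = 0.00642) and with cisplatin (1.57 ± 0.45, adjusted p = 0.0152), and Igfbp4 with cisplatin (2.06 ± 0.203, adjusted p = 2.2e-05). The cisplatin difference of Igfbp2 was 0.72 without cisplatin library 3 (adjusted p = 0.0309). Igfbp7 fell with cisplatin (-3.27 ± 0.401, adjusted p = 8.14e-05). Irs2, an insulin and IGF receptor substrate, was lower with CBLB502 than in control (-2.58 ± 0.624, adjusted p = 0.00988) and higher with cisplatin than with CBLB502 (3.54 ± 0.644, adjusted p = 0.00614). Irs2 was also higher with cisplatin than in control when cisplatin library 3 was left out (1.46, adjusted p = 0.0124). Igfbp3, which carries most IGF in the complex with the Igfals product, was at 8.88, 8.75 and 2.32 CPM in control liver and at 2.99, 5.23 and 1.30 CPM with cisplatin, which was not called (-1.07 ± 0.57, adjusted p = 0.15). The receptor gene Igf1r was at 2.73 CPM or less in every liver library, and Igf2 was at or below 0.112 CPM in all but 1 control library.

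**Figure D3:**
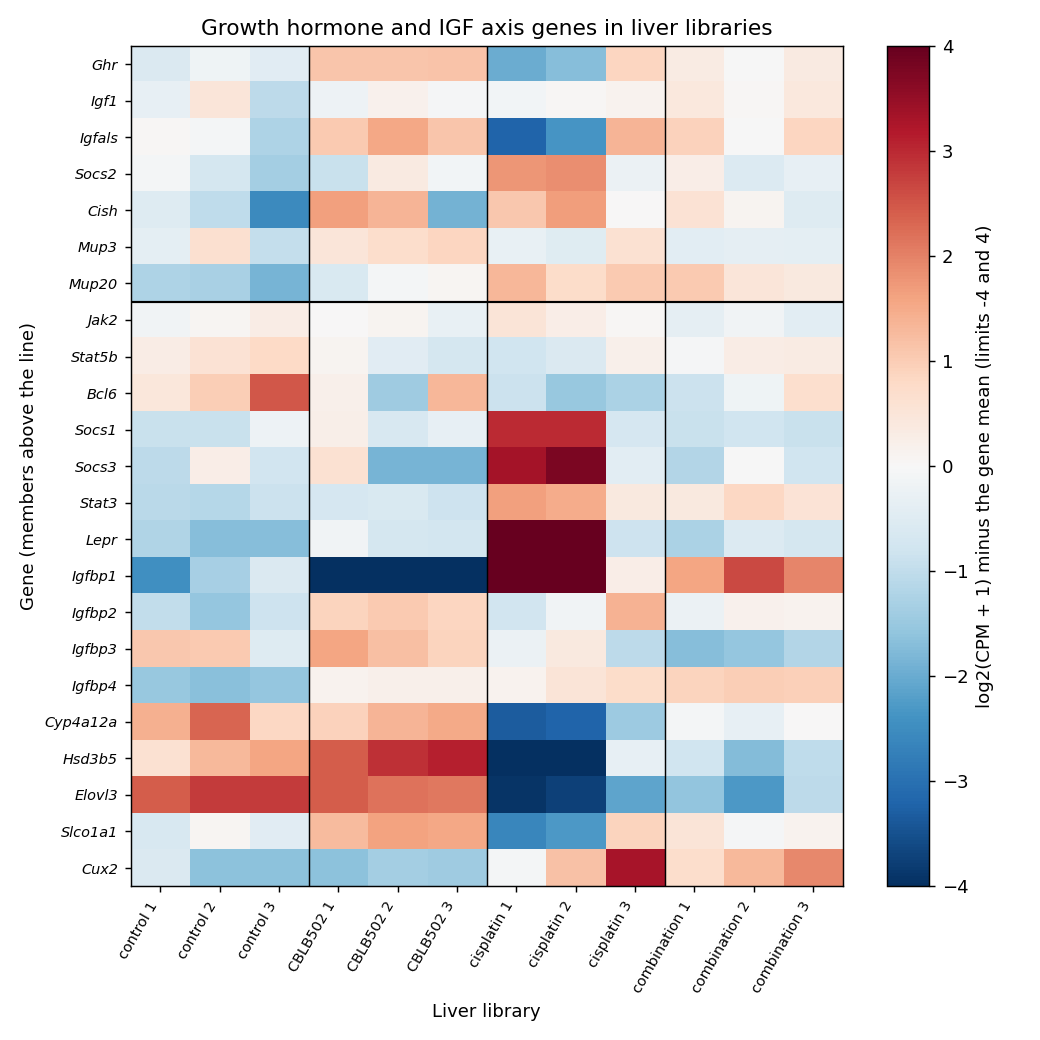
Levels of the 7 genes (above the line) and 16 other genes of the axis in the 12 liver libraries, as log2(CPM + 1) minus each gene's mean over the libraries (colour, clipped at -4 and 4); rows are genes and columns are libraries by arm. Socs1, Socs3 and Lepr are high in cisplatin libraries 1 and 2, where Ghr, Igfals, Hsd3b5, Elovl3 and Slco1a1 are low, and Igfbp1 is low in all 3 CBLB502 libraries.

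Transcription factors below the hormone changed in both directions. Of 8, 4 were called higher and 1 lower with cisplatin than in control liver, beside 25.6% and 17.5% of all genes. Without cisplatin library 3 the counts were 5 and 3, beside 26.1% and 20.6% of all genes. The median of the 8 with all libraries was 1.32, beside 0.09 over all genes. Bcl6, a repressor that Stat5 turns down, fell by -3.01 ± 0.758 (adjusted p = 0.00767), from 16.6, 24.2 and 71.4 CPM to 6.11, 3.50 and 4.31 CPM. Cux2, a factor of female liver, was at 1.11 CPM or less in control and at 1.998, 6.04 and 29.8 CPM with cisplatin (5.17 ± 1.44, adjusted p = 0.0128), and its highest value was in library 3, without which the difference of Cux2 was 3.55 (adjusted p = 0.0377). Tox rose by 2.44 ± 0.462 (adjusted p = 0.00137). Onecut1, a liver factor, was higher with CBLB502 (2.60 ± 0.743, adjusted p = 0.0223).

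Of 21 male-biased liver genes that depend on the hormone's pulses, 3 were higher and 4 lower with cisplatin than in control, beside 25.6% and 17.5% of all genes. The counts without cisplatin library 3 were 4 and 6, beside 26.1% and 20.6% of all genes. Against CBLB502 none was higher and 8 were lower, where 4.84% of all genes were lower, with a median of -1.01 beside -0.06 over all genes. The count of 8 became 12 without cisplatin library 3 and 4 to 6 without any other 1 library of these arms. Elovl3, a fatty acid elongase, was at 126.7 to 163.9 CPM in control, 101.2 to 126.0 with CBLB502, 0.55, 0.764 and 4.44 with cisplatin and 3.87 to 10.3 with the combination. Cisplatin against control gave -6.30 ± 0.786 for Elovl3 (adjusted p = 9.11e-05), and -7.82 without library 3. In the combination Elovl3 was higher than with cisplatin only without library 3 (3.43, adjusted p = 0.000175). Hsd3b5, a steroid dehydrogenase, had 0.101 and 0.185 CPM in the first cisplatin libraries, 1 and 2, and stood at 14.0 CPM in library 3 and at 99.6 to 161.8 CPM with CBLB502 (-4.80 ± 1.39, adjusted p = 0.0439). Without library 3 that difference of Hsd3b5 was -9.85 (adjusted p = 1.68e-06), and cisplatin against control, not called with all libraries (-3.15, adjusted p = 0.0688), was -8.17 (adjusted p = 8.47e-07). The fatty acid hydroxylases Cyp4a12a and Cyp4a12b fell with cisplatin (-4.24 ± 0.615 and -3.49 ± 0.667, adjusted p = 0.000242 and 0.00148) and were higher in the combination than with cisplatin (2.41 ± 0.567 and 3.21 ± 0.657, adjusted p = 0.0425 and 0.0263). These were the 2 of 21 called there, where 0.993% of all genes were called higher, a count of 8 higher and 1 lower without cisplatin library 3 (23.1% of all genes in either direction) and of 0 by edgeR without any other 1 library of both arms. With CBLB502, 6 of the 21 were higher than in control, where 18.3% of all genes were. None of the 21 was lower, where 1700 of 17931 genes were. Ugt2b38 (2.58 ± 0.458), Cyp7b1 (2.02 ± 0.429) and Mup7 (1.97 ± 0.605) led the 6. Mup20, of the same class, thus rose with cisplatin where Elovl3 and Cyp4a12a fell. It was not alone in this, as the class went both ways. Without cisplatin library 3, the 4 called higher than in control, beside 6 lower, included Mup7 (2.35, adjusted p = 0.00845) and Gstp1 (1.7, adjusted p = 1.34e-05). The others were Ugt2b38 (1.47, adjusted p = 0.00663) and Serpina1e (1.35, adjusted p = 0.0113).

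Of 18 female-biased liver genes 12 could be tested, and 5 were higher and none lower with cisplatin (4 and 1 without cisplatin library 3), beside 25.6% and 17.5% of all genes. The median of the 12 was 3.67 beside 0.09 over all genes. Acot3, an acyl-CoA thioesterase, was at 0.402 CPM or less in control and at 2.84, 5.40 and 61.6 CPM with cisplatin. Its level in library 3 exceeded that in the other cisplatin libraries, and the difference of Acot3 from control was 7.54 (adjusted p = 0.00233) with it and 5.06 (adjusted p = 0.00145) without it.

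Genes with a pattern most like each member were sought over the 9 treated liver libraries among 5616 genes with a mean of at least 10 CPM and no predicted-gene symbol (5593 for Mup3 and Mup20, without other Mup genes), by Pearson r of log2 CPM. The closest to Ghr were Prkd3 (0.997), Ugt2b1 (0.996) and Sec14l2 (0.996), and to Igfals Acsm5 (0.994), Cyp2c67 (0.993) and Acbd5 (0.992). To Socs2 they were Larp4 and Impad1 (both 0.964) and Pros1 (0.94), and to Mup3 Bdh1 (0.959), Bst2 (0.956) and Ifi27 (0.955). To Mup20 they were Wapl (0.938), Hipk1 (0.931) and Kdm3b (0.928). Igf1 and Cish had no partner as close: Cpne3 (0.916), Cyp4a31 (0.887) and Ikbkg (0.869) for Igf1, and Zfp664 (0.896), Ehd1 (0.891) and Rnaset2a (0.871) for Cish. These libraries share the split of the cisplatin arm, so the r values describe them without a test.

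Levels between genes were compared per length, as CPM per kilobase of annotated exons. In control liver the order was Mup3 (1881 ± 1100), Mup20 (668.2 ± 144), Igf1 (22.3 ± 11.6), Ghr (8.98 ± 1.27), Igfals (5.89 ± 2.55), Socs2 (1.07 ± 0.496) and Cish (0.759 ± 0.539). Ghr and Igfals did not overlap, the lowest Ghr library being at 7.98 and the highest Igfals library at 7.62, while Mup3 and Mup20, Igf1 and Ghr were apart and Socs2 and Cish overlapped. With cisplatin Mup20 (3770.0 ± 787) stood above Mup3 (2029 ± 889), and their libraries overlapped only between 3012 and 3049. In control kidney the order was Ghr (18.6 ± 2.68), Mup3 (1.81 ± 1.86), Cish (1.67 ± 0.636), Igf1 (1.54 ± 1.44), Igfals (1.38 ± 0.491), Socs2 (0.954 ± 0.179) and Mup20 (0.56 ± 0.97), and all neighbours after Ghr overlapped.

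In kidney, whose tubule cells also carry the receptor, Ghr was higher in every treated arm. It was at 196.8, 153.7 and 156.1 CPM in control, 398.7, 377.3 and 355.6 with CBLB502, 437.3, 211.7 and 513.7 with cisplatin and 422.7, 393.6 and 400.7 with the combination. Every treated library lay above every control library, with cisplatin library 5 the nearest to them. Ghr rose by 1.16 ± 0.264 with CBLB502 (adjusted p = 0.0104), by 1.2 ± 0.264 with cisplatin (adjusted p = 0.00407) and by 1.26 ± 0.264 with the combination (adjusted p = 0.00315). The treated arms did not differ at the threshold: cisplatin against CBLB502 gave 0.04 ± 0.26 and the combination against cisplatin 0.07 ± 0.26. A list of 6 proximal tubule markers summed to 7357 to 12500.0 CPM in control kidney, 14080.0 to 19930.0 with CBLB502, 9263, 4925 and 14540.0 in cisplatin libraries 4, 5 and 6, and 11480.0 to 13710.0 with the combination. The gene Kap made up most of each sum, and the other markers did not move alike. In cisplatin libraries 4 and 5 Slc34a1 was at 468.6 and 375.0 CPM, against 861.4 to 1906 CPM in control. Cubn was at 73.7 and 62.3 CPM there, against 38.6 to 67.3 CPM in control. The part of these markers in the Ghr differences was not tested.

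**Figure D4:**
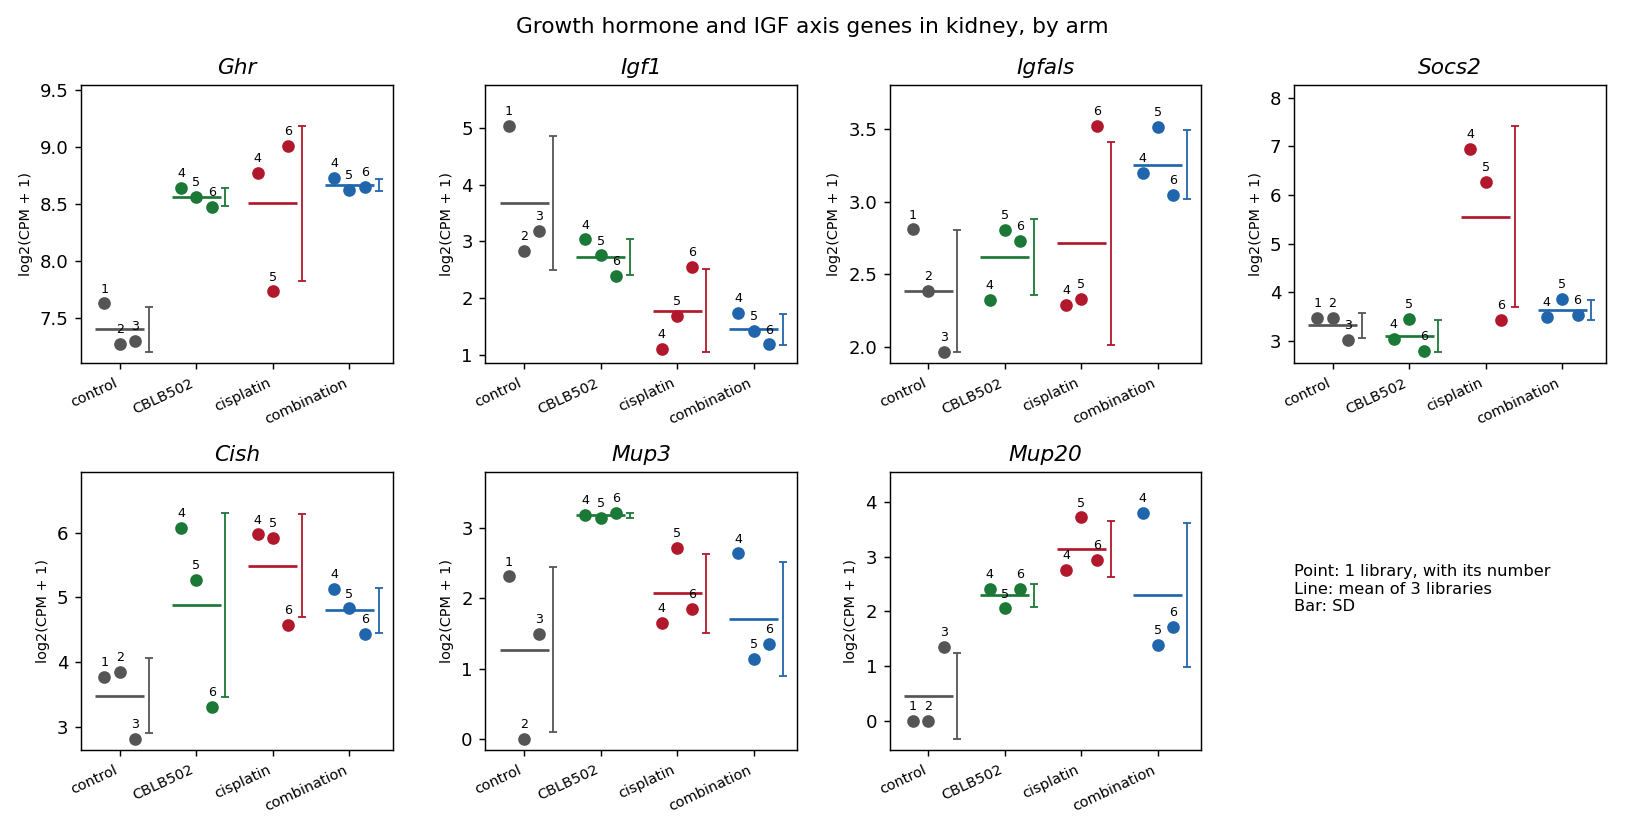
Level of each of the 7 genes in the 12 kidney libraries as log2(CPM + 1) (vertical axis) by arm (horizontal axis); points are libraries with their numbers, lines are means of 3 libraries and bars are SD. Ghr is higher in all 9 treated libraries than in control, Igf1 is lowest with cisplatin and the combination, and Socs2 is high in cisplatin libraries 4 and 5 but not in library 6.

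Kidney Igf1, which acts locally and is scarce there, was lower with cisplatin. It was at 31.7, 6.11 and 8.05 CPM in control, 7.21, 5.74 and 4.24 with CBLB502, 1.15, 2.21 and 4.86 with cisplatin and 2.33, 1.69 and 1.28 with the combination. Control library 1 stood far above the other two, and all cisplatin and combination libraries lay below control. Igf1 fell by -2.47 ± 0.651 with cisplatin (adjusted p = 0.0108) and by -3.10 ± 0.669 with the combination (adjusted p = 0.00376). Without control library 1 the cisplatin difference was -1.35 and was not called (adjusted p = 0.0699). Cisplatin against CBLB502 gave -1.06 ± 0.622 (adjusted p = 0.224), and -1.77 ± 0.633 without cisplatin library 6 (adjusted p = 0.0379). A list of 6 stromal markers summed to 339.4 to 490.9 CPM in control kidney, 84.2 to 117.6 with CBLB502, 15.9 to 51.9 with cisplatin and 37.1 to 46.2 with the combination, and its part in the fall of Igf1 was not tested. The cisplatin difference of Igf1 was lower in kidney than in liver by -2.57 ± 0.743 (adjusted p = 0.0255), the 1 of 7 genes called lower, where 6.44% of 21570 genes were. Between the tissues no member differed in the combination against cisplatin by edgeR, where 0.964% of all genes did, with none at an unadjusted p under 0.05, none by DESeq2 and none by limma-voom. Without liver cisplatin library 3 the cisplatin difference from control was higher in kidney for Ghr (2.75 ± 0.365, adjusted p = 4.25e-05) and Igfals (3.36 ± 0.660, adjusted p = 0.00141). The combination against cisplatin was then lower in kidney for Ghr (-2.0 ± 0.359, adjusted p = 0.00201) and Igfals (-3.25 ± 0.643, adjusted p = 0.00386).

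Kidney Igfals was at 2.91 to 6.00 CPM in control, 4.0 to 5.98 with CBLB502, 3.90, 4.04 and 10.5 with cisplatin and 7.27 to 10.4 with the combination, and edgeR called it in no comparison with all libraries. Its highest cisplatin value was in library 6. Without that library it was higher in the combination than with cisplatin (1.12 ± 0.307, adjusted p = 0.0216).

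Kidney Socs2 was high in only some of the cisplatin libraries, as in liver. It was at 10.1, 10.1 and 7.12 CPM in control, 7.25, 9.89 and 5.96 with CBLB502, 122.3, 76.5 and 9.81 with cisplatin and 10.3, 13.6 and 10.6 with the combination. Cisplatin libraries 4 and 5 stood above all others and library 6 lay within control. Socs2 rose by 2.94 ± 0.644 against control (adjusted p = 0.00399) and by 3.17 ± 0.642 against CBLB502 (adjusted p = 0.00414). The combination against cisplatin gave -2.59 ± 0.626 (adjusted p = 0.229), and -3.11 ± 0.257 without library 6 (adjusted p = 1.6e-05).

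Kidney Cish was at 12.7, 13.5 and 6.03 CPM in control, 66.2, 37.7 and 8.94 with CBLB502, 61.8, 59.6 and 22.8 with cisplatin and 34.0, 27.4 and 20.7 with the combination. As in liver, 1 CBLB502 library lay within control and all cisplatin libraries lay above it. Cish rose with cisplatin (2.17 ± 0.615, adjusted p = 0.0155), a call lost without control library 3 (1.89, adjusted p = 0.0597). CBLB502 against control gave 1.81 ± 0.608 (adjusted p = 0.0576), and 2.29 without CBLB502 library 6 (adjusted p = 0.0104).

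The urinary protein genes were scarce in kidney. Mup20 was at 0, 0 and 1.56 CPM in control kidney, where 3 counts in a library correspond to 0.123 to 0.254 CPM, and at 5.75, 12.1 and 6.65 CPM with cisplatin (3.92 ± 1.18, adjusted p = 0.0208). It was at 12.9, 1.61 and 2.27 CPM with the combination (3.37 ± 1.17, adjusted p = 0.0401), a call lost without combination library 4 (1.85, adjusted p = 0.227), control library 1 or control library 2. The cisplatin call was lost without control library 1 (adjusted p = 0.0585) or cisplatin library 5 (adjusted p = 0.0571). With CBLB502 Mup20 was at 4.32, 3.15 and 4.29 CPM (2.86 ± 1.15, adjusted p = 0.106), called without control library 3, when both controls left had no count. Mup3 was at 3.97, 0 and 1.82 CPM in control and at 8.11, 7.88 and 8.32 CPM with CBLB502 and edgeR called it in no comparison with all libraries, while limma-voom called the combination against CBLB502 for Mup3. The mean level in kidney was 0.0838% to 0.262% of that in liver of the same arm for Mup20 and 0.0961% to 0.239% for Mup3, beside 0.18% to 0.227% for albumin. Alb was at 21.9, 1.72 and 47.1 CPM in control kidney, with its lowest value in the library without Mup3, and at 68.1 to 121.4 CPM with cisplatin. Kap, a proximal tubule gene, was in turn at 13.8 to 27.0 CPM in 7 treated liver libraries and at 0 in CBLB502 library 1 and cisplatin library 3. The part of RNA from the other organ in these values was not tested.

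Over the 7 genes in kidney, 4 were called higher and 1 lower with cisplatin than in control, where 24.1% and 15.2% of all 20341 genes were. With CBLB502 1 was higher (11.4% of all genes), and with the combination 2 were higher and 1 lower (21.5% and 15%). Cisplatin exceeded CBLB502 for 1 of 7 (18.5%). None was called between the combination and cisplatin by edgeR, where 0.00492% of all genes were, with 1 at an unadjusted p under 0.05 and 1 by DESeq2 (Socs2). Without library 6, 2 of 7 were called (Socs2 and Igfals), where 22.3% of 20954 genes were. In the same fit 5 of 7 were called between cisplatin and control (51.7% of all genes) and 2 of 7 between cisplatin and CBLB502 (46.9%). None was called between the combination and CBLB502 (23.8% of all genes), with 1 at an unadjusted p under 0.05, 1 by DESeq2 (Igf1) and 2 by limma-voom (Igf1 and Mup3). None was called in the interaction (8.01%), with 4 at an unadjusted p under 0.05 and 3 by DESeq2 (Cish, Ghr and Socs2). It was called for Socs2 (-2.87) and Cish (-2.97) without cisplatin library 6, for Ghr (-1.41) without cisplatin library 5, for Cish (-3.10) without CBLB502 library 6 and for Mup20 without control library 3.

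Of the other genes of the axis in kidney, 3 of 12 signalling genes were higher and 2 lower with cisplatin than in control, and 3 of 6 SOCS genes were higher and none lower, beside 24.1% and 15.2% of all genes. The medians were 0.37 and 0.48, beside 0.06 over all genes. Socs3 was at 6.43, 2.75 and 1.30 CPM in control and at 133.5, 90.9 and 8.57 CPM with cisplatin (4.53 ± 0.855, adjusted p = 0.00167), with the same libraries high as for Socs2. Without cisplatin library 6, the combination lay below cisplatin for Socs3 (-2.99, adjusted p = 0.000547), Stat3 (-1.07, adjusted p = 0.000127) and Jak2 (-0.81, adjusted p = 0.00324), none of which was called with all libraries. Stat3 rose by 2.27 ± 0.354 (adjusted p = 0.000522) and Jak2 by 0.77 ± 0.224 (adjusted p = 0.0175). Stat5b was not called (-0.16 ± 0.187, adjusted p = 0.514). Acute-phase Saa1 and Lcn2 summed to 1544, 1432 and 59.4 CPM in cisplatin libraries 4, 5 and 6 and to 1.35 to 4.30 CPM in control, and their part in the Socs2 and Socs3 values was not tested.

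All 17 IGF genes could be tested in kidney. With cisplatin 5 were higher and 5 lower than in control, beside 24.1% and 15.2% of all genes. Without cisplatin library 6 the counts were 5 and 8, where 51.7% of all genes were called in either direction. Igf1r, the receptor of IGF-1, rose with CBLB502 (1.79 ± 0.167, adjusted p = 6.12e-05) and with cisplatin (1.14 ± 0.164, adjusted p = 0.000327), from 21.5, 30.7 and 30.4 CPM to 91.7 to 100.7 and 51.5 to 68.3 CPM. With CBLB502 the insulin receptor Insr (0.96 ± 0.122) and the clearance receptor Igf2r (1.14 ± 0.27) rose as well. Igfbp3 fell from 516.4, 212.5 and 199.2 CPM to 13.3, 34.8 and 38.8 CPM with cisplatin (-3.42 ± 0.562, adjusted p = 0.000722), and Igfbp2 fell by -2.51 ± 0.647 (adjusted p = 0.00961). Igfbp1 was at 1.51 CPM or less in control and at 6.14 to 12.45 CPM with cisplatin (4.10, adjusted p = 0.00725). Igf2 was at 8.03, 3.36 and 0 CPM in control and had no count in cisplatin kidney.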

How the data were processed

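The authors deposited 1 table of 33272 genes with raw counts per gene and library and with FPKM, per the file headers. Adapter trimming with cutadapt 1.9 and a FastQC check come from the submitters' processing notes. No source used here gives the aligner, counter, strand setting or genome build. Of the gene IDs, 99.65% were in GENCODE M21 (GRCm38), and coordinates are those of the table. Columns of treated kidney are numbered 4 to 6, unlike the labels, and were tied to arms and not to single samples. The 9 FPKM columns of treated kidney were not used.

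Counts as deposited were tested with edgeR 4.0.16 in R 4.3.3 (filterByExpr, TMM scaling, quasi-likelihood test, Benjamini-Hochberg over all genes, threshold 0.05), with all 12 libraries of a tissue in a fit, and all 24 for the difference between tissues. The interaction was the combination minus CBLB502 minus cisplatin plus control, so the library difference of control enters it in both tissues. DESeq2 1.42.0, limma 3.58.1 (voom), other scalings, no filter, and fits without 1 library were alternatives. The steps were tested on simulated data. Log2 CPM had a prior count of 2. CPM per kilobase used GENCODE exon lengths.

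The 7 members and the gene lists were chosen with earlier results of these data known, so list counts are descriptions. Named genes were all members, the 3 largest called changes of each list in a main comparison, and Igfbp1, Igfbp2, Igfbp3, Socs1, Socs3, Stat5b, Jak2, Bcl6, Igf1r and Igf2. Not every gene that this rule names is described here. Genes with a like pattern were the 3 closest to each member. Slco1a1, Saa1, Lcn2, Kap, Alb and the small RNA genes were added after values were seen or come from marker lists. Fits of kidney minus liver without 1 library, and of the treated kidney arms alone with and without their column numbers as a block, were also added after the data were seen.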

Additional observations from a re-analysis of the deposited data

Results flagged for a closer look

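The change of Igf1 with cisplatin differed between the tissues, by a test of the difference itself in a single fit of all 24 libraries. That fit took liver and kidney libraries as independent, which the labels do not settle. In liver the cisplatin and control libraries overlapped, with means of 253.5 ± 23.9 and 221.0 ± 114 CPM (SD, n = 3), and in kidney the means were 2.74 ± 1.91 and 15.3 ± 14.3 CPM. The log2 difference of kidney minus liver was -2.57 ± 0.743 (edgeR, adjusted p = 0.0255). It was -1.50 without kidney control library 1, which held 31.7 CPM, and the adjusted p was then 0.133. The call was also lost without liver control library 3 (adjusted p = 0.0604), kidney cisplatin library 4 (0.0583) or kidney cisplatin library 5 (0.0595), and limma-voom did not make it.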

How the results depend on the processing

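Of the values of single genes under the alternatives, 771 kept direction and side of the threshold, 34 lost and 23 gained a call, and 46 turned sign. The 771 include values called in neither fit. They also include all 62 values without a filter and all 62 without mitochondrial genes and their nuclear copies. Liver Ghr and Igfals in DESeq2, which returned no p for them, were counted there as not called. Median-of-ratios in place of TMM scaling moved the median of all genes for cisplatin against control from 0.09 to -0.14 in liver, so small differences from control turn with the scaling. In liver cisplatin against control, Igf1, Ghr and Mup3 became -0.05, -0.19 and -0.14 under median-of-ratios scaling and in DESeq2, and -0.19, -0.32 and -0.28 under upper-quartile scaling, with Igfals at -0.12. Limma-voom gave -1.19 for Igfals and -0.58 for Ghr. Igf1 with CBLB502 against control was -0.10, -0.12 and -0.10 under median-of-ratios, upper-quartile and DESeq2, and under upper-quartile scaling cisplatin against CBLB502 gave -0.07 for Igf1 and -0.02 for Cish. Kidney Ghr between cisplatin and CBLB502 became -0.01, -0.12, -0.01 and -0.06 under median-of-ratios, upper-quartile, DESeq2 and limma-voom. The causes were not tested.

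Counts of the 7 genes called changed as follows. In liver, cisplatin against control had 1 in limma-voom, CBLB502 against control 2 in DESeq2 and 3 with only both arms fitted, the combination against cisplatin 1 in DESeq2, cisplatin against CBLB502 2 in DESeq2, 2 in limma-voom and 0 with only both arms fitted, the combination against CBLB502 1 in DESeq2 and 3 with only both arms, and the interaction 2 in DESeq2. In kidney, limma-voom called 2 for cisplatin against control, DESeq2 called 2 for CBLB502 against control, 1 for the combination against cisplatin and 3 for the interaction, and the combination against CBLB502 had 1 in DESeq2, 2 in limma-voom and 3 with only both arms. Limma-voom called 0 for kidney minus liver.

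Liver libraries of the same number showed little in common: over 18 pairs their deviations from arm means had r from -0.17 to 0.18, with 4 over 0.1. With 3 libraries in an arm, this does not exclude a pairing. With the replicate block, liver counts were 2 for CBLB502 against control, 2 for the combination against control and 2 for the interaction, and in cisplatin against control Igfals was -0.54 and Ghr -0.31. Control kidneys share no number with treated ones, so only the treated kidney arms were fitted with a block, in fits added after seeing the data. Over their 9 pairs r ran from -0.13 to 0.07. The 3 arms fitted alone gave 1 call for the combination against CBLB502. With the replicate block they gave 0 there, 0 for the combination against cisplatin and 1 for cisplatin against CBLB502, where Ghr was -0.04.

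Leaving out 1 library gave these ranges of calls. In liver they were 2 to 5 for cisplatin and 1 to 2 for CBLB502 and for the combination against control, 0 to 3 for the combination against cisplatin, 0 to 5 for cisplatin against CBLB502 and 1 to 4 for the interaction. In kidney they were 3 to 5, 1 to 2 and 2 to 3 against control in the same order, 0 to 2, 1 to 2 and 0 to 2 for the rest, and for kidney minus liver 0 to 3 and 0 to 2. Values that turned sign in liver cisplatin against control ran from -1.45 to 0.50 for Ghr, -0.07 to 0.71 for Igf1, -2.75 to 0.83 for Igfals and -0.28 to 0.71 for Mup3. Igf1 with CBLB502 ran from -0.12 to 0.66, liver Mup3 in the combination against cisplatin from -0.62 to 0.02, and in cisplatin against CBLB502 Cish from -0.47 to 0.58 and Igf1 from -0.04 to 0.15. In kidney, cisplatin against CBLB502 ran from -0.11 to 1.04 for Cish, -0.22 to 0.32 for Ghr and -0.39 to 0.48 for Igfals. Kidney Igfals with cisplatin against control ran from -0.12 to 0.79, and the combination against cisplatin from -0.27 to 0.32 for Ghr, -1.0 to 0.07 for Igf1 and -1.32 to 0.12 for Mup3. Control livers, with fewer counts outside mitochondrial genes, limit low genes such as Cish.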
